A study of Arabidopsis thaliana with 6 samples.

Results

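Aquaporins are the membrane channels that carry water, and in several cases small uncharged solutes, across plant membranes. The 34 aquaporin genes described here were taken by locus identifier from the 33977 gene identifiers counted in whole Arabidopsis thaliana plants, and comprise 13 PIP, 10 TIP, 8 NIP and 3 SIP genes. They were followed in 3 samples of Col-0 plants grown with CsCl and in 3 Mock samples, all wild type with no transgene or mutant allele in the labels. The CsCl plants stood from seed on half-strength MS medium with 1.5 mM CsCl, and the Mock plants on the same medium with nothing added. Both spent 10 days in a chamber at 22 °C with long days, 16 h light and 8 h dark. Cesium is chemically close to potassium and enters roots through potassium transport systems. Each sample is poly(A) RNA of entire plants, so fewer cells of a type and less RNA per cell cannot be told apart in any level given here. No label ties the 3 samples of a group to separate cultures, so every p-value measures sample-to-sample spread that could be technical.

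Plant aquaporins fold into bundles of membrane-spanning helices around a pore, where short loops that each carry an asparagine-proline-alanine triplet meet. PIPs are the channels of the plasma membrane and act in water uptake by roots and in leaf hydraulics, with PIP2 proteins bringing PIP1 proteins to the membrane in mixed tetramers. TIPs are the channels of the vacuolar membrane, and some pass ammonia or hydrogen peroxide. NIPs carry metalloids such as boric acid and arsenite, and SIPs lie in the endoplasmic reticulum. Names are written with a hyphen here (PIP1-2 is the gene also known with a semicolon in place of the hyphen).

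The DNA coding for the pore triplets is shown because 26 of the 34 members code for the canonical triplet 2 times. The others, all of them NIP or SIP genes, depart from it. Each line holds 27 coding bases, 5′ to 3′ on the coding strand, with the codons of the triplet in capitals. They were read from the RefSeq TAIR10.1 assembly by locus, and the coordinates are of that assembly.
PIP2-1 first box, chr3:19804651-19804677, minus strand: ggtcacattAACCCAGCGgtgacattt
PIP2-1 second box, chr3:19804161-19804187, minus strand: accggaattAACCCGGCAaggagtttc
PIP2-4 first box, chr5:24376405-24376431, minus strand: ggtcatataAATCCGGCTgtgacggtg
PIP2-5 first box, chr3:20302540-20302566, plus strand: gggcatattAATCCGGCAgtgactttt
TIP1-2 first box, chr3:9723431-9723457, minus strand: ggccacgttAACCCTGCCgttaccttc
NIP1-1 second box, chr4:10421905-10421931, minus strand: gcgtcgatgAATCCAGGAagaagttta
NIP5-1 first box, chr4:6432360-6432386, minus strand: gctcacctaAACCCATCActgaccata
NIP5-1 second box, chr4:6431686-6431712, minus strand: ggatctatgAATCCTGTGagaactcta
SIP1-1 first box, chr3:1073807-1073833, minus strand: gctagcttcAATCCTACCggaagcgct
All 13 PIP and all 10 TIP genes code for the triplet 2 times, as do 3 of the 8 NIP genes. The other NIP genes and all 3 SIP genes depart from it at the last residue. In NIP1-1 and its close relative NIP1-2 the second box ends in glycine, in NIP6-1 the second ends in valine, and in NIP7-1 the first ends in serine. NIP5-1, the boric acid channel of the root, has no canonical box, since its first ends in serine and its second in valine. The first box ends in threonine in SIP1-1, in cysteine in SIP1-2 and in leucine in SIP2-1. The number of coding exons is 4 in every PIP gene, 1 to 3 in the TIP genes, 4 to 5 in the NIP genes and 3 to 4 in the SIP genes, so that it overlaps between subfamilies.

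PIP2-2 (AT2G37170) and PIP2-3 (AT2G37180) lie 2612 bases apart on chromosome 2, on opposite strands, and are the only pair of members whose transcripts share any stretch of 75 bases. Their second boxes show how close they are.
PIP2-2 second box, chr2:15613887-15613913, minus strand: accggcatcAACCCGGCTaggagtttc
PIP2-3 second box, chr2:15618657-15618683, plus strand: accggtatcAACCCGGCTaggagtttc
Between these windows there is 1 difference, C6T, with the PIP2-2 base first and positions counted from 1 at the 5′ end of the window, while their first boxes are identical. Over the 557 coding bases of exons 2 to 4 they differ at 31 bases, which is 94.4% identity, and their transcripts share an unbroken run of 242 bases. Of all 75-base words, PIP2-2 shares 15.1% and PIP2-3 shares 16.8%. Reads from these stretches cannot be assigned to one of the genes by sequence, and how the counting treated them is not given in the sources used here.

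The libraries held 32075069, 34803640 and 44108369 counts in the CsCl samples and 32694267, 33416318 and 35442349 in the Mock samples. Of 21005 genes that passed the low-count filter, 177 were higher and 277 lower with CsCl at an adjusted p below 0.05 (edgeR quasi-likelihood test, Benjamini-Hochberg adjustment), and the first principal component separated the groups. The second component spread the Mock libraries, with scores of -29.7 for Mock 1, 1.14 for Mock 2 and 21.8 for Mock 3. Mock 1 and Mock 3 lay at its opposite ends, and the CsCl libraries between them at 6.63, 5.17 and -5.04. Levels below are CPM, gene counts divided by TMM-scaled library sizes, or CPM per kilobase of annotated exon (RPKM) where genes are set against each other. Among the 34 aquaporins, 27 have no exon base in common with another counted gene. The exceptions all overlap a gene on the other strand, and the share of exon bases free of it is 38.1% in NIP2-1, 52.9% in TIP3-2, 75.4% in TIP3-1, 86.0% in TIP2-1, 86.9% in SIP2-1, 90.9% in TIP5-1 and 97.9% in NIP6-1.

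Aquaporin transcripts were abundant in both groups. Together the 34 genes took 1.09 to 1.19% of all counts in the CsCl libraries and 1.06 to 1.26% in the Mock libraries. The order of levels per length was led by a vacuolar channel, TIP1-2 (AT3G26520), at 1478 ± 68.4 RPKM with CsCl and 1548 ± 162 RPKM in Mock (SD, n = 3 each). It was followed by TIP2-1 (AT3G16240), a vacuolar channel that also passes ammonia, at 1211 ± 121 RPKM with CsCl and 1358 ± 278 RPKM in Mock, and by PIP2-1 (AT3G53420), a plasma membrane water channel of roots and leaves, at 1071 ± 58.1 RPKM with CsCl and 1229 ± 116 RPKM in Mock. Over the 6 libraries the range of TIP2-1 overlapped those of TIP1-2 and PIP2-1. These levels divide by all exon bases. Per kilobase of exon free of another counted gene, the mean of TIP2-1 over the 6 libraries was 1493 RPKM in place of 1284. TIP1-2, with no overlap, was at 1513 RPKM either way. PIP1-2 (AT2G45960), a leaf and root channel linked to water and CO2 conductance, came next at a mean of 849 RPKM over the 6 libraries, below PIP2-1 without overlap.

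Below PIP1-2 came PIP2-7 (AT4G35100) at 653 RPKM, TIP1-1 (AT2G36830) at 589 RPKM, PIP1-3 (AT1G01620) at 389 RPKM, PIP2-2 at 337 RPKM, PIP1-1 (AT3G61430) at 299 RPKM and PIP1-5 (AT4G23400) at 277 RPKM, each a mean of 6 libraries. TIP2-2 (AT4G17340) at 190 RPKM, PIP2-6 (AT2G39010) and PIP1-4 (AT4G00430) at 156 RPKM each and PIP2-3 at 87.0 RPKM completed the upper part of the order. The highest gene of another subfamily was SIP1-1 (AT3G04090) at 44.9 RPKM, and the highest NIP was NIP1-1 (AT4G19030) at 23.7 RPKM. Of the 33 neighbouring pairs in the order, 23 had ranges over the 6 libraries that overlapped. Both genes of a pair were read in the same libraries, so overlapping ranges do not show that their ranks are tied. Gaps without overlap lay below PIP2-1, PIP1-2, TIP1-1, PIP1-5, PIP1-4, PIP2-3, TIP2-3, PIP2-4, PIP2-8 and TIP3-1. On the CPM scale the 6 most abundant members held 72.5% of the summed level of the family.

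**Figure D1:**
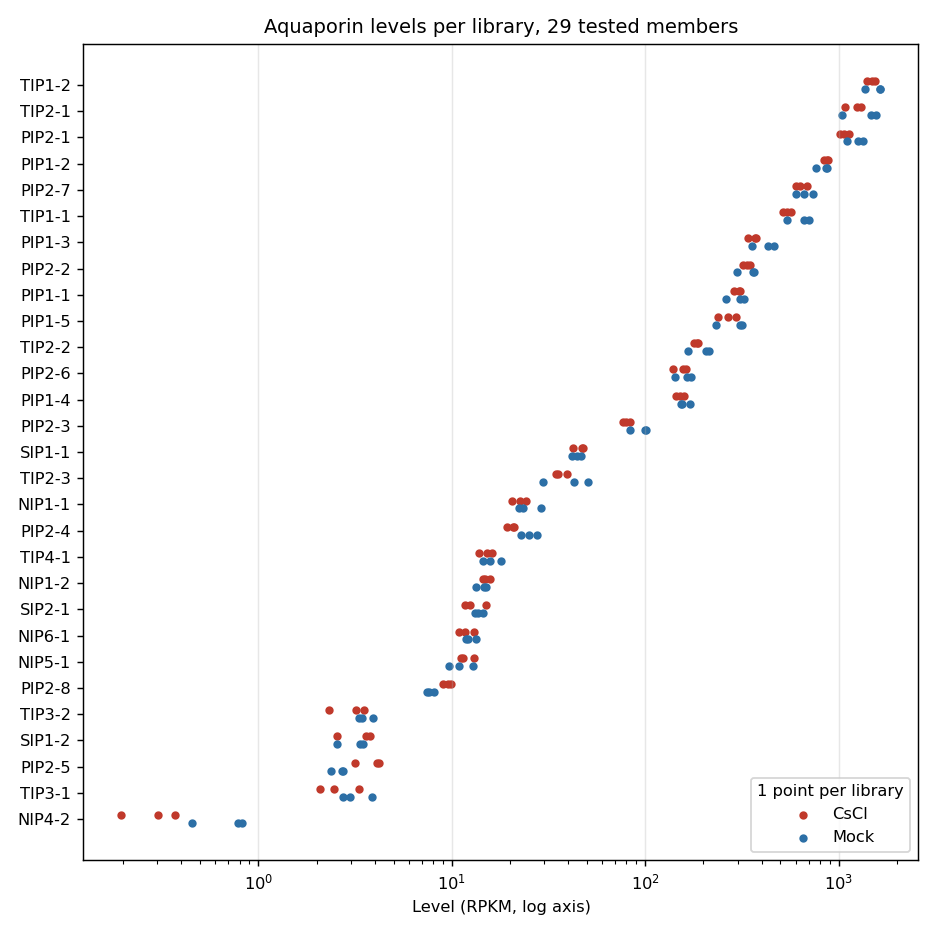
Level of each of the 29 tested aquaporins in RPKM (log axis), 1 point per library, CsCl in red and Mock in blue. The order runs from TIP1-2, with a mean of 1513 RPKM over 6 libraries, down to NIP4-2 at 0.488 RPKM, and the 2 colours overlap for nearly every gene.

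No aquaporin passed the test between CsCl and Mock plants. Of the 29 members with enough counts to be tested, 0 had an adjusted p below 0.05 in edgeR, against 2.16% of all tested genes. At an unadjusted p below 0.05, 6 members were lower with CsCl, against 7.75% of all genes, and 2 were higher, against 6.67% of all genes. DESeq2 called PIP2-5 higher and PIP2-4 lower, against 3.14% of all genes in either direction, and limma-voom called 0 members. All 3 CsCl libraries lay below all 3 Mock libraries for 2 members, PIP2-4 and NIP4-2, against 9.75% of all genes, and above them for 2 members, PIP2-5 and PIP2-8, against 10.0% of all genes.

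The intervals bound how large a difference could have gone undetected. For 25 of the 29 tested members the 95% interval of the fold change excluded a 1.5-fold difference in either direction, and for 28 it excluded a 2-fold difference, leaving NIP4-2 as the exception. The fitted log2 fold change was below 0 in 21 of 29 members, with a median of -0.08 where the median of all tested genes was 0.01. All 8 tested TIP genes were below 0. A median over members that share libraries is a description, and it gives no test of the family.

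**Figure D2:**
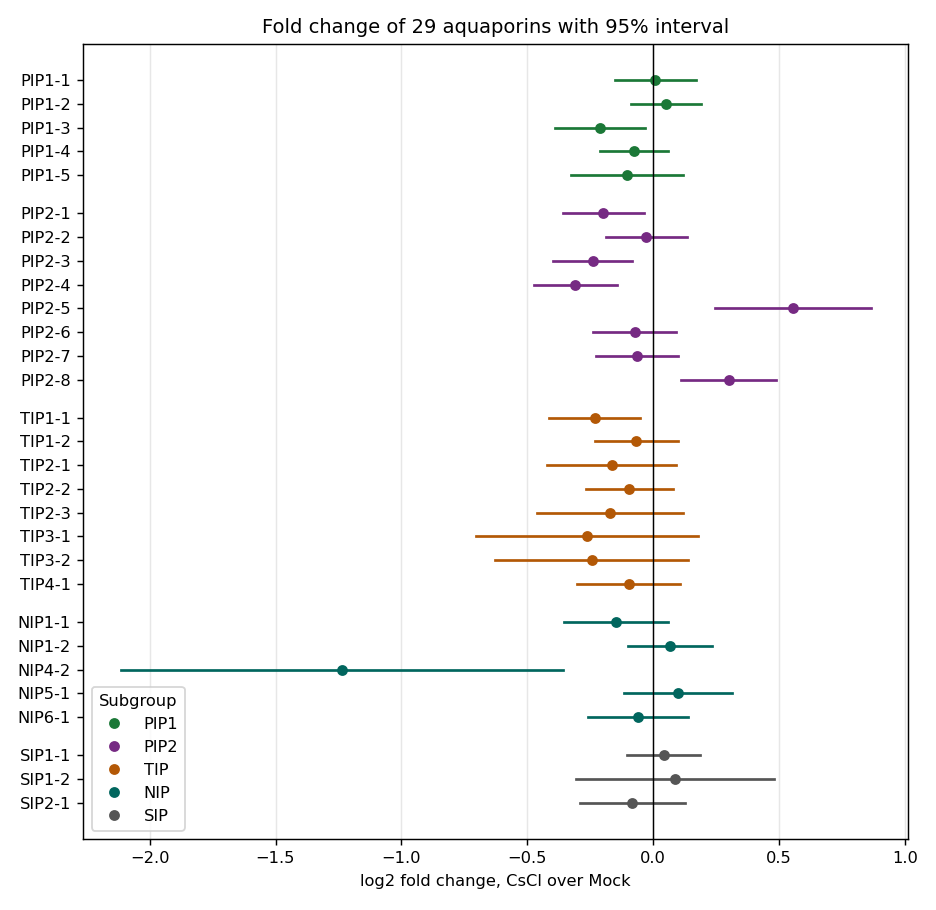
Log2 fold change of CsCl over Mock for the 29 tested aquaporins, with 95% intervals. Most intervals span 0 and exclude a 1.5-fold difference. PIP2-5 is highest at 0.55 and NIP4-2 lowest at -1.24, with the widest interval.

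Among the PIP1 genes, whose proteins need PIP2 partners to reach the plasma membrane, the levels of the 2 groups overlapped in all 5. PIP1-2 had 1412, 1382 and 1347 CPM in the CsCl libraries and 1225, 1379 and 1393 CPM in the Mock libraries. The ranges overlap, and Mock 1 is the lowest of the 6. Its log2 fold change was 0.05 ± 0.06 (SE, adjusted p = 0.781, edgeR), with a 95% interval of -0.09 to 0.19. PIP1-3 had 576, 574 and 525 CPM with CsCl and 554, 671 and 716 CPM in Mock. Here Mock 2 and Mock 3 stand above every CsCl library and Mock 1 stands among them, and the log2 fold change was -0.21 ± 0.08 (SE, adjusted p = 0.25, edgeR). The other PIP1 genes had log2 fold changes of 0.01 (PIP1-1), -0.08 (PIP1-4) and -0.10 (PIP1-5), with adjusted p-values of 0.972, 0.628 and 0.709 in edgeR.

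The PIP2 genes form water channels on their own, and they held the aquaporins nearest to the threshold. Their most abundant member, PIP2-1, had 1782, 1669 and 1601 CPM with CsCl and 1734, 1970 and 2093 CPM in Mock. The groups overlap only through Mock 1, and the log2 fold change was -0.20 ± 0.07 (SE, adjusted p = 0.231, edgeR), with a 95% interval of -0.36 to -0.04. PIP2-7 had 1094, 1009 and 969 CPM with CsCl and 969, 1176 and 1067 CPM in Mock, which overlap throughout, and a log2 fold change of -0.06 ± 0.08 (SE, adjusted p = 0.759, edgeR). PIP2-2 and PIP2-6 were as close between the groups, with log2 fold changes of -0.03 and -0.07 and adjusted p-values of 0.908 and 0.722 in edgeR.

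PIP2-5 (AT3G54820) was the PIP gene with the largest fitted fold change. It had 5.68, 7.33 and 7.56 CPM with CsCl, from 184, 256 and 342 counts, and 4.90, 4.27 and 4.87 CPM in Mock, from 161, 142 and 166 counts. Every CsCl library was above every Mock library, and CsCl 1 lay closest to the Mock range. The log2 fold change was 0.55 ± 0.14 (SE, adjusted p = 0.0661, edgeR), with a 95% interval of 0.24 to 0.86. PIP2-5 is a low-level gene in these plants, at 3.22 RPKM over 6 libraries, where PIP2-1 had 1150 RPKM. Without CsCl 1 its log2 fold change was 0.67 with an adjusted p of 0.0355, and with no low-count filter its adjusted p was 0.0264, a setting in which 3.1% of all genes were called. Over the 18 alternatives its adjusted p ran from 0.0264 to 0.303 and was below 0.05 in 3.

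PIP2-4 (AT5G60660), a root plasma membrane channel, had the lowest adjusted p of the family. It and the next genes named from the PIP2 group were chosen after their values were seen. PIP2-4 had 30.0, 30.4 and 28.1 CPM with CsCl and 36.2, 33.2 and 40.2 CPM in Mock, so that the groups do not overlap. The log2 fold change was -0.31 ± 0.08 (SE, adjusted p = 0.0533, edgeR), with a 95% interval of -0.48 to -0.14. Over the 18 alternatives its adjusted p ran from 0.0129 to 0.23 and was below 0.05 in 6, so the call turns on the setting while the fitted value stayed below 0 in all of them.

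PIP2-8 (AT2G16850) had 14.6, 13.3 and 14.1 CPM with CsCl and 11.3, 11.9 and 11.0 CPM in Mock, again with no overlap. Its log2 fold change was 0.30 ± 0.09 (SE, adjusted p = 0.113, edgeR). PIP2-3 had 96.6, 102 and 93.8 CPM with CsCl and 101, 121 and 122 CPM in Mock, where Mock 1 falls inside the CsCl range. Its log2 fold change was -0.24 ± 0.07 (SE, adjusted p = 0.123, edgeR). When PIP2-3 and its near copy PIP2-2 were summed as 1 feature, the log2 fold change was -0.07 with an adjusted p of 0.738 in edgeR. PIP2-2 makes up most of that sum, with means of 449 CPM with CsCl and 458 CPM in Mock. PIP2-3 had means of 97.4 and 115 CPM, so the sum cannot show whether PIP2-3 itself differs. The sum does not depend on how shared reads were divided between the genes, but it would on any that were dropped.

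In the TIP genes of the vacuolar membrane every tested fold change was below 0 and none passed the test. TIP1-2 had 1987, 1922 and 1812 CPM with CsCl and 1757, 2113 and 2122 CPM in Mock. Mock 1 is the lowest of the 6 libraries and the other Mock libraries the highest, and the log2 fold change was -0.07 ± 0.08 (SE, adjusted p = 0.753, edgeR). TIP2-1 had 1559, 1480 and 1280 CPM with CsCl and 1238, 1748 and 1858 CPM in Mock. The Mock libraries enclose the whole CsCl range, and the log2 fold change was -0.17 ± 0.12 (SE, adjusted p = 0.583, edgeR). TIP1-1, which also passes hydrogen peroxide and was named after its values were seen, had 704, 672 and 635 CPM with CsCl and 671, 822 and 871 CPM in Mock. Its log2 fold change was -0.23 ± 0.08 (SE, adjusted p = 0.215, edgeR), and Mock 1 again lies within the CsCl range.

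TIP2-2 and TIP2-3 (AT5G47450), relatives of TIP2-1, had log2 fold changes of -0.09 and -0.17 with adjusted p-values of 0.647 and 0.618 in edgeR, and the root-expressed TIP4-1 (AT2G25810) had -0.10 with an adjusted p of 0.695. TIP3-1 (AT1G73190), a channel of the storage vacuoles of seeds, had the largest fitted fold change of the TIP genes. It had 2.90, 2.46 and 3.93 CPM with CsCl and 4.54, 3.22 and 3.49 CPM in Mock, which overlap, and a log2 fold change of -0.26 ± 0.21 (SE, adjusted p = 0.613, edgeR). Its seed partner TIP3-2 (AT1G17810) had a log2 fold change of -0.24 with an adjusted p of 0.586. A list of 8 other seed genes summed to 11.8 to 33.2 CPM in the CsCl libraries and 12.97 to 33.7 CPM in the Mock libraries, none of them at 0 counts, and their part in the TIP3 levels was not tested. TIP1-3 (AT4G01470) and TIP5-1 (AT3G47440), both known from pollen, had 9 and 8 counts over all 6 libraries and were not tested.

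The NIP genes were low, and their levels in the 2 groups lay close together except in NIP4-2. NIP1-1, a channel through which arsenite enters roots, had 32.7, 29.7 and 35.3 CPM with CsCl and 42.2, 33.8 and 32.4 CPM in Mock. The groups overlap, with Mock 1 this time the highest, and the log2 fold change was -0.15 ± 0.10 (SE, adjusted p = 0.526, edgeR). NIP1-2 (AT4G18910), known for carrying aluminium malate, had 22.6, 21.5 and 20.8 CPM with CsCl and 19.2, 21.0 and 21.7 CPM in Mock. Its log2 fold change was 0.07 ± 0.08 (SE, adjusted p = 0.754, edgeR), with overlapping groups. The boric acid channels NIP5-1 (AT4G10380), of roots, and NIP6-1 (AT1G80760), of shoot nodes, had log2 fold changes of 0.10 and -0.06 with adjusted p-values of 0.714 and 0.819 in edgeR.

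NIP4-2 (AT5G37820), a channel of pollen tubes, was near the lower limit of detection. It had 14, 8 and 16 counts with CsCl, or 0.432, 0.229 and 0.353 CPM, and 30, 32 and 18 counts in Mock, or 0.914, 0.963 and 0.529 CPM. The groups do not overlap, and the log2 fold change was -1.24 ± 0.41 (SE, adjusted p = 0.164, edgeR), with a 95% interval of -2.11 to -0.36. A list of 5 pollen markers, none with enough counts to be tested, summed to 0.0309 to 0.229 CPM with CsCl and 0.206 to 0.426 CPM in Mock, with 1 of the 5 at 0 counts, and their part in the NIP4-2 level was not tested. The pollen gene NIP4-1 (AT5G37810) had 0 counts in 6 libraries. If each count is a separate fragment, this allows a level of up to 0.0141 CPM (3 of 212540012 counts, counting error only). NIP2-1 (AT2G34390), a lactic acid channel of roots low in oxygen, had 40 counts in all and NIP7-1 (AT3G06100), a boric acid channel of anthers, had 20. These genes were not tested. A further NIP gene outside the 34 members, NIP3-1 (AT1G31885), had 28, 36 and 60 counts with CsCl and 48, 29 and 36 in Mock, with a log2 fold change of -0.06 ± 0.30 (SE, adjusted p = 0.954, edgeR).

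The 3 SIP genes of the endoplasmic reticulum overlapped between the groups and none passed the test. SIP1-1 had 60.7, 61.6 and 54.4 CPM with CsCl and 60.3, 57.4 and 53.7 CPM in Mock, which overlap, and a log2 fold change of 0.04 ± 0.07 (SE, adjusted p = 0.832, edgeR). SIP1-2 (AT5G18290) had 4.91, 3.32 and 4.66 CPM with CsCl and 4.51, 4.33 and 3.32 CPM in Mock, and a log2 fold change of 0.09 ± 0.18 (SE, adjusted p = 0.879, edgeR). SIP2-1 (AT3G56950) had a log2 fold change of -0.08 with an adjusted p of 0.759.

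Summed over the 34 genes, the aquaporins came to 11743, 11284 and 10582 CPM with CsCl and 10509, 12643 and 12946 CPM in Mock. The mean was 11203 ± 585 CPM with CsCl and 12033 ± 1328 CPM in Mock (SD, n = 3 each), so the difference, -0.10 on the log2 scale, is smaller than the SD of the Mock libraries. The 10 TIP genes summed to 4567, 4396 and 4035 CPM with CsCl and 3956, 5047 and 5217 CPM in Mock, with Mock 1 below every other library. The 8 PIP2 genes summed to 3826, 3630 and 3441 CPM with CsCl and 3567, 4155 and 4197 CPM in Mock, and the 5 PIP1 genes to 3174, 3088 and 2926 CPM with CsCl and 2802, 3262 and 3368 CPM in Mock. The NIP sum was 90.0 to 101 CPM with CsCl and 90.4 to 101 CPM in Mock, and the SIP sum 78.3 to 81.6 CPM with CsCl and 74.1 to 83.5 CPM in Mock. No subgroup sum separated the groups.

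**Figure D3:**
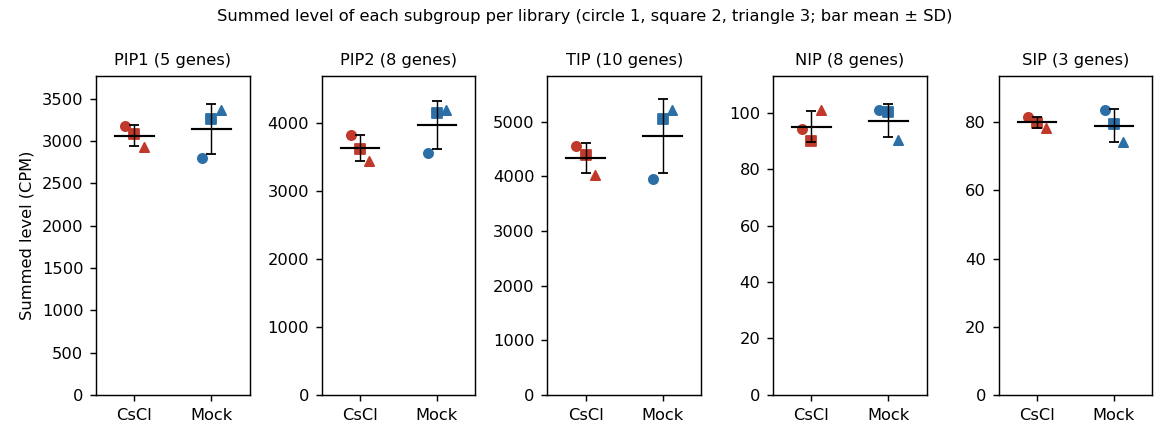
Summed level of each subgroup in CPM, 1 symbol per library with the mean and SD, CsCl left of Mock. In PIP1, PIP2 and TIP the Mock 1 circle lies well under the other 2 Mock libraries, while in NIP and SIP the 6 libraries lie close together.

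The abundant aquaporins moved together from library to library. Taking the 14 members at 100 CPM or more, a limit chosen after the values were seen that falls in a gap between 58.0 and 106 CPM, all 14 were lowest in Mock 1 among the Mock libraries and all 14 were lowest in CsCl 3 among the CsCl libraries. Of the 1655 genes of all kinds at that level, 43.7% were lowest in Mock 1 and 56.8% in CsCl 3. The 14 genes lay at a median of -0.27 (log2) in Mock 1 relative to the other Mock libraries, where abundant genes in general lay at -0.03. In CsCl 3 the medians were -0.11 for the aquaporins and -0.04 for abundant genes in general. Among the other 15 tested members, 3 were lowest in Mock 1 and 4 in CsCl 3. The abundant members had coefficients of variation of 2.37 to 10.5% (median 4.87%) over CsCl libraries and 6.35 to 20.5% (median 10.5%) over Mock libraries. CsCl 3 is the most deeply sequenced library. The part in this pattern of depth, or of the spread of the Mock libraries on the second principal component, was not tested.

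**Figure D4:**
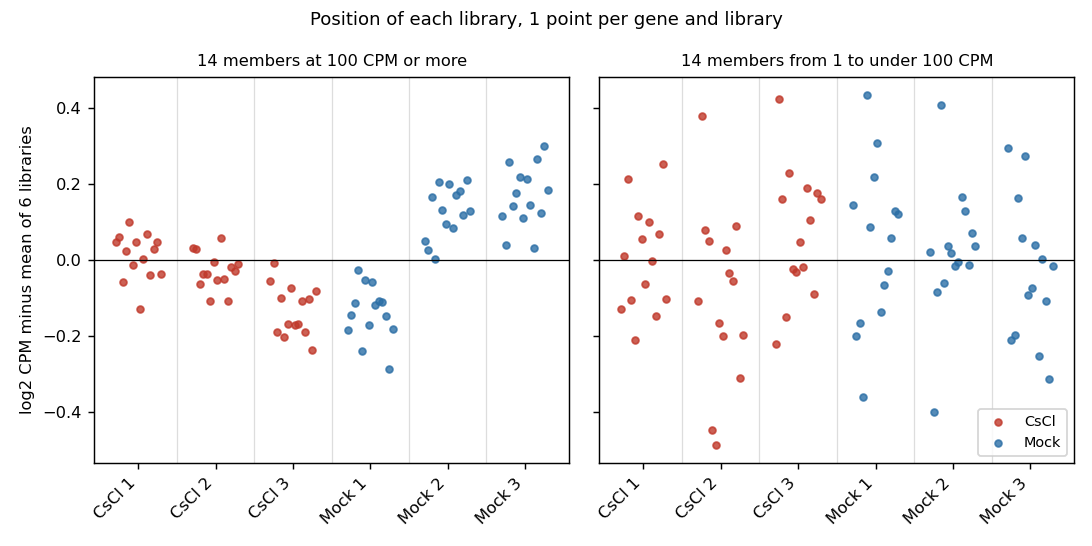
Log2 CPM of each gene in each library, less its mean over the 6 libraries, for the 14 members at 100 CPM or more (left) and the 14 members from 1 to under 100 CPM (right). In the left panel the points of Mock 1 lie under 0 and those of Mock 2 and Mock 3 above it, and in the right panel no library stands apart in this way.

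The count of aquaporins called depends on Mock 1. Without that library, 5 aquaporins were lower with CsCl at an adjusted p below 0.05 in edgeR, against 1.55% of all genes called lower in the same fit. They were TIP1-1 (log2 fold change -0.34, adjusted p = 0.0142), PIP2-3 (-0.33, adjusted p = 0.0103), PIP1-3 (-0.32, adjusted p = 0.0207), TIP2-1 (-0.33, adjusted p = 0.0429) and TIP2-3 (-0.36, adjusted p = 0.0297), with 3 CsCl libraries against 2 Mock libraries. All 14 abundant members were then below 0, where 12 were with all libraries, and their median log2 fold change was -0.18 in place of -0.09. These 14 were all lowest in Mock 1 among the Mock libraries, so a downward shift without it was fixed in advance and is no separate result. The same holds for TIP2-3, at 34.8, 59.2 and 49.9 CPM in Mock 1, 2 and 3. Over all 29 members, 23 were below 0 with a median of -0.12. Leaving out Mock 2 gave 1 aquaporin, PIP2-4 (log2 fold change -0.38, adjusted p = 0.0286), among 250 genes of all kinds called lower in that fit. Leaving out any other single library gave no aquaporin lower.

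**Figure D5:**
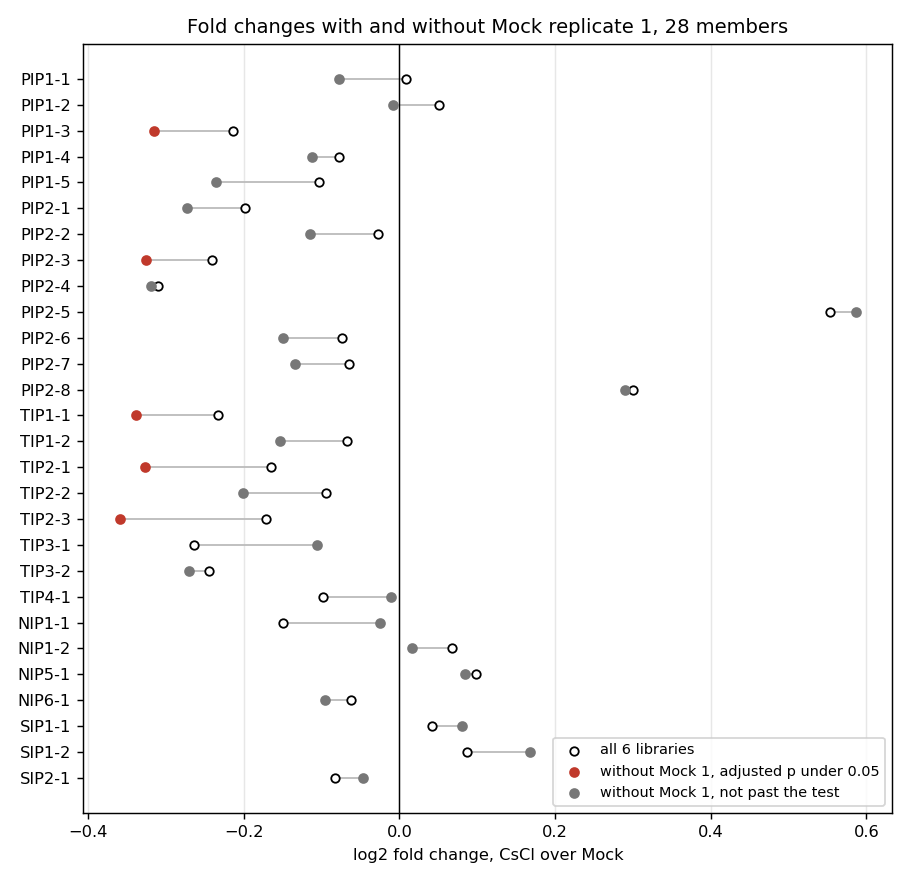
Fitted log2 fold change of CsCl over Mock for 28 tested aquaporins with and without Mock replicate 1 (NIP4-2 is off the scale and left out). The values without Mock 1 are lower for the abundant PIP and TIP genes, and the 5 that passed the test lie between -0.32 and -0.36.

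Genes that act with aquaporins were read from lists of known regulators and partners. Of 9 genes for PIP trafficking and regulation, 1 was called higher, against 0.843% of all genes, and 0 lower, against 1.32%. At an unadjusted p below 0.05, 1 was higher, against 6.67% of all genes, and 1 lower, against 7.75%. The gene called was RMA1 (AT4G03510), a ubiquitin ligase that in Arabidopsis acts on PIP2-1, with 10.9, 12.3 and 12.3 CPM with CsCl and 7.55, 9.21 and 8.78 CPM in Mock. The groups do not overlap, and the log2 fold change was 0.48 (adjusted p = 0.0329, edgeR). None of 5 tested boron exporters, 10 proton pumps or 3 tested ammonium transporters was called, against 2.16% of all genes in either direction. At an unadjusted p below 0.05, 1 boron exporter was higher, against 6.67% of all genes. By the same limit 1 proton pump and 1 ammonium transporter were lower, against 7.75% of all genes. The medians of the 4 lists were -0.04, -0.04, -0.04 and -0.12 on the log2 scale.

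Many aquaporins are most abundant in roots, and some markers of root cells differed between the groups. Of 17 tested root markers, 4 were lower with CsCl, against 1.32% of all genes, and 0 higher, against 0.843%. At an unadjusted p below 0.05, 1 was higher, against 6.67% of all genes, and 5 were lower, against 7.75%. The log2 fold changes of the 17 were below 0 in 12 and above 0 in 5, with a median of -0.23. All 3 CsCl libraries lay below all 3 Mock libraries in 5 of them, against 9.75% of all genes. They lay above in 1, against 10.0% of all genes, and the groups overlapped in 11. The gene higher at an unadjusted p below 0.05 was ESB1, which acts in Casparian strip formation, with a log2 fold change of 0.97 (adjusted p = 0.289, edgeR). ESB1 was a low-count gene, with 20, 19 and 30 counts with CsCl and 14, 9 and 8 in Mock. Only 15.7% of its exon bases are free of another counted gene, and the effect of that overlap was not tested. The 18 genes of the list, none at 0 counts, summed to 4564 to 5099 CPM with CsCl and 5928 to 6255 CPM in Mock. PYK10 alone made up 93.54 to 94.98% of that sum, and the other 17 genes summed to 292, 295 and 295 CPM with CsCl and 334, 324 and 314 CPM in Mock, which do not overlap. CASP2, which builds the Casparian strip of the endodermis, had 19.6, 18.0 and 18.4 CPM with CsCl and 27.4, 26.1 and 23.96 CPM in Mock (log2 fold change -0.47, adjusted p = 0.0054, edgeR). PYK10, an abundant beta-glucosidase of root endoplasmic reticulum bodies, had 4807, 4311 and 4269 CPM with CsCl and 5819, 5604 and 5941 CPM in Mock (log2 fold change -0.38, adjusted p = 0.0084, edgeR). Of 12 leaf markers 0 were called, against 2.16% of all genes in either direction. Unadjusted, 1 had a p below 0.05 and was higher, against 6.67% of all genes, and 3 were lower, against 7.75%. The 12 leaf markers summed to 74435 to 78264 CPM with CsCl and 78682 to 87346 CPM in Mock, also without overlap. The part of root or leaf RNA in the aquaporin levels was not tested.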

How the data were processed

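Whole Col-0 plants were measured by RNA-seq in 3 CsCl and 3 Mock samples, from stranded poly(A) libraries per the labels' protocols. The deposited files hold raw counts per gene, made by the authors with FastQC, STAR and featureCounts on TAIR10, per the submitters' processing notes, which also name edgeR. Not given in the sources used here are the versions, the annotation release, the strand setting and the handling of multiply mapped reads. From 65.5 to 73.4% of the counts between 1 and 50 in a library were even numbers, so counting error in fragments may be larger than the counts show.

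The counts were fitted in R 4.3.3 with edgeR 4.0.16 (quasi-likelihood test, filterByExpr, TMM scaling, group as the single term) over all genes, with Benjamini-Hochberg adjustment over the 21005 tested genes and a threshold of 0.05. Alternatives used DESeq2 1.42.0, limma 3.58.1 (voom), other filters and scalings, and each library left out. RPKM used union exon lengths from the RefSeq TAIR10.1 annotation, which also gave coordinates and sequences by locus, since the files hold none. On counts drawn with known changes, the same steps recovered 70 of 100 genes changed 1.5-fold and 91 of 100 changed 2-fold, with 5 false calls, over 20868 genes tested. Those counts were drawn with the typical spread of genes at each level. They held no extra spread of single genes, no excess of even counts and no shift of 1 library. Recovery in the real data may therefore be lower. TMM factors were 0.961 to 1.03. Within each group no pair of libraries was a copy (chi-square per gene 5.71 to 11.5). The aquaporins and the gene lists were chosen with earlier results of these data known. Genes given in full were members past the threshold, the 2 highest per length of PIP1, PIP2, TIP and NIP, the highest SIP, and the largest fitted change of each subfamily. Others are said to be chosen after their values were seen.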

Additional observations from a re-analysis of the deposited data

How the results depend on the processing

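Of 18 alternatives, the count of all genes called changed by over 1.5 times in a few. Higher and lower genes were 301 and 518 with no low-count filter, against 177 and 277 as reported, 425 were lower by DESeq2, and 180 were lower on total counts without TMM, where 198 were higher. Leaving out 1 library gave 89 (without CsCl 3) to 231 (without Mock 1) higher and 90 (without CsCl 2) to 330 (without Mock 1) lower. Aquaporins higher, 0 as reported, were 1 (PIP2-5) with no filter, by DESeq2 and without CsCl 1, and 0 to 1 over left-out libraries. Genes of all kinds higher were 235 by DESeq2 and 150 without CsCl 1. Aquaporins lower, 0 as reported, were 2 with no filter (PIP2-3 and PIP2-4), 1 (PIP2-4) by DESeq2, with robust fitting, without organelle genes and with counts halved, and 0 to 5 over left-out libraries. Genes of all kinds lower were 310 with robust fitting, 315 without organelle genes and 299 with counts halved. Of 29 members 21 never changed sign. The others changed sign when 1 library was left out, with log2 fold changes of -0.078 (without Mock 1) to 0.067 in PIP1-1, -0.0080 (without Mock 1) to 0.081 in PIP1-2, -0.115 to 0.018 (without Mock 3) in PIP2-2, -0.134 to 0.0034 (without Mock 2) in PIP2-7, -0.359 to 0.0026 (without Mock 2) in TIP2-3, and, each lowest without Mock 3, -0.00046 to 0.208 in NIP5-1, -0.0042 to 0.093 in SIP1-1 and -0.042 to 0.239 in SIP1-2. On total counts PIP2-2 was at 0.012. The cause was not tested. Summed levels moved by less than 1 SD. With the replicate number as a block, 146 genes were higher, 210 lower and 0 aquaporins called. The numbers share nothing in the labels, and same-numbered libraries correlated at -0.077, 0.039 and -0.0096 in their deviations, so no pairing was used. NIP4-2 rests on 3 samples a group and 8 to 32 counts a library, and the part of depth in its result was not tested.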

Other observations

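AMT1-1 (AT4G13510), the main high-affinity ammonium transporter of Arabidopsis roots, had 1 count over the 6 libraries. Only 1.56% of its exon bases are free of AT4G13505 on the other strand in the TAIR10.1 annotation. Among protein-coding genes with under 10% of their exon bases free of another counted gene, 97.6% of 539 had 12 counts or fewer over the 6 libraries, and among those with all exon bases free it was 22.2% of 19954. No aquaporin is under 10% free. The lowest is NIP2-1 at 38.1%, and the effect of the overlaps on its level and on those of TIP2-1, TIP3-1, TIP3-2 and the other overlapped members was not tested.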
